A study of Mus musculus with 6 samples.

Results

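Transcript levels of 6 genes, Ush1g, Lgi2, Ptprn, Fam78b, Slc6a9 and Dnm1, were examined in cultured embryonic cardiomyocytes in which DNMT1 was knocked down. They were listed by symbol because their read counts fell with DNMT1 siRNA in the same comparison, and because most of them are known from neurons or secretory cells. They are 6 of the 43629 genes in the count files, and all 6 were among the 15470 genes that passed a filter on low counts. Since the fall itself chose them, it is described here and no p is given for it. The genes of their families and pathways were tested in the fit across all 15470 genes.

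Cardiomyocytes were isolated from the ventricles of CD-1 mouse embryos at embryonic day 13.5, pooled by litter, grown for 48 h and transfected with negative siRNA or with a pool of DNMT1 siRNAs, each at 12 nM. Cells positive for VCAM1 were sorted with magnetic beads 72 h later, and poly(A) RNA was sequenced from 3 cultures per treatment. DNMT1 siRNA is the name in the sample titles, which were followed, although a treatment tag on these 3 samples reads DNMT3a siRNA. In these samples the Dnmt1 transcript was called lower and that of Dnmt3a was not called, with values given below. The labels do not say whether cultures came from separate litters, so p values measure the spread between these cultures only.

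DNMT1 is the enzyme that copies methyl groups onto the new DNA strand after replication, and many neuronal and germline genes carry methylated promoters in other tissues. Regulated secretion, in neurons and endocrine cells, packs peptides into dense-core vesicles and transmitters into synaptic vesicles, releases them at the membrane and retrieves the membrane by endocytosis. Of the 6 genes, Ptprn encodes a membrane protein of dense-core vesicles and Dnm1 encodes the dynamin that pinches off synaptic vesicles. Lgi2 encodes a secreted leucine-rich protein of the LGI family, whose receptors are ADAM22 and ADAM23. Slc6a9 encodes the glycine transporter GlyT1, which clears glycine from the synapse and supplies glycine to other cells. Ush1g encodes SANS, a scaffold of the Usher protein complex in the hair bundles of the inner ear. The function of the Fam78b protein is little known.

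The RefSeq promoter windows of these genes (GRCm38.p6, from 250 bases before to 50 bases after each transcript start) are shown first, because the CG dinucleotide is the site that DNMT1 methylates. The table used holds 7 windows for 4 of the 6 genes, with 2 for Ptprn, 3 for Slc6a9 and 1 each for Lgi2 and Dnm1. The 4 sequences below are the window with the farthest upstream start of each gene, read 5′ to 3′ on the gene's strand, with every CG in capitals. They are chr2:32353280-32353579 on the minus strand for Dnm1, chr5:52566257-52566556 on the minus strand for Lgi2, chr1:75264159-75264458 on the minus strand for Ptprn and chr4:117835008-117835307 on the plus strand for Slc6a9.
Dnm1: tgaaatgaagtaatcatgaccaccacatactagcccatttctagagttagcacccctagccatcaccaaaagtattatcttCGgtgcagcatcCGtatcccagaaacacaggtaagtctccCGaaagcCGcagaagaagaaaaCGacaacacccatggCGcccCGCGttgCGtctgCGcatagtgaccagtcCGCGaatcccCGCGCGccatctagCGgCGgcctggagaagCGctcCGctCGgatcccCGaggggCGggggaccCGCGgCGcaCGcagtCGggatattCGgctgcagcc
Lgi2: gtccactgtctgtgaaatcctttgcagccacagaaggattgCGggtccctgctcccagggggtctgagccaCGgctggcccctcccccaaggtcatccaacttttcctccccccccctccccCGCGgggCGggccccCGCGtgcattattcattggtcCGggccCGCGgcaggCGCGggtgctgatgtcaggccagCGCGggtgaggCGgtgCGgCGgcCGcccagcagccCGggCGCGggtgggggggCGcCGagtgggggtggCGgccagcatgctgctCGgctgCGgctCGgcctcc
Ptprn: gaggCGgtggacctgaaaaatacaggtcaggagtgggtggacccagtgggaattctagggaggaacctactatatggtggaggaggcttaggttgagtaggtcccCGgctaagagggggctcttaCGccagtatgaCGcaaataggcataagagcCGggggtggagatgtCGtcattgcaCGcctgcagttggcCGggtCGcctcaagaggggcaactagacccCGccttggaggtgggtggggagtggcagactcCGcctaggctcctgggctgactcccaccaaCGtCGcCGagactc
Slc6a9: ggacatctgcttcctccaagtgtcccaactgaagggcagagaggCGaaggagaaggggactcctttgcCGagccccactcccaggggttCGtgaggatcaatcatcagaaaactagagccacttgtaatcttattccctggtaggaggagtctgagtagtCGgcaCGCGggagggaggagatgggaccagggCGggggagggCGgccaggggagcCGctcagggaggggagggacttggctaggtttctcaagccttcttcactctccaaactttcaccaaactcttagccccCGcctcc

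The 4 windows differed in their CG content. The Dnm1 window held 28 CG, more than 86.0% of the windows of 27025 genes, and the Lgi2 window held 27, more than 84.6% of them. Across all of these genes the median was 7 CG, with 1 window taken for each gene. The first Ptprn window held 14 CG and the second 15. The 3 Slc6a9 windows held 10, 14 and 8. Corrected for base composition, the ratio of observed to predicted CG was 1.08 for Dnm1 and 0.669 for Lgi2, against a median of 0.389. These were above those of 97.5% and 68.1% of the genes. The first Ptprn window had 0.538 and the second 0.809, which is above Lgi2. The 3 Slc6a9 windows had 0.387, 0.542 and 0.294. The 4 genes with a window thus ranged from a dense CG promoter to one near the median of all genes. Methylation was not measured at these promoters in the files used here.

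**Figure D1:**
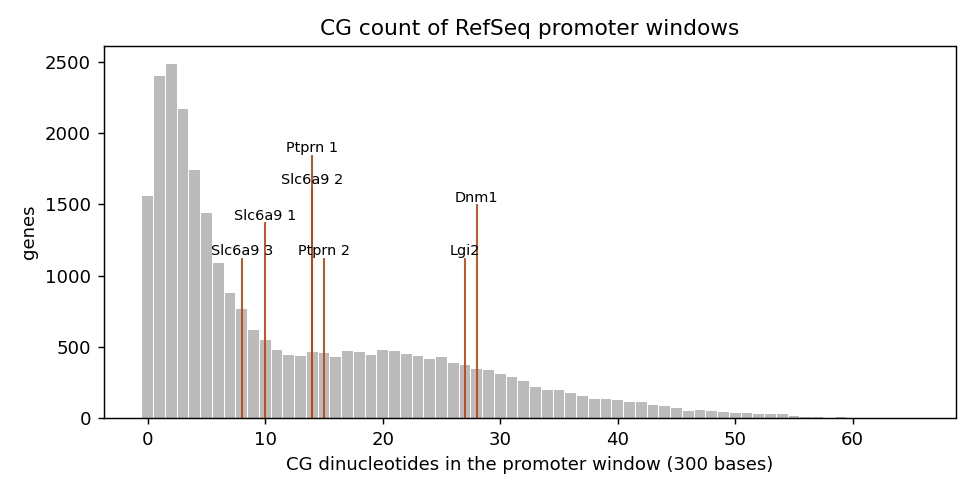
CG dinucleotides per 300-base RefSeq promoter window (x axis) against the number of genes (grey bars, 27025 genes, 1 window a gene), with red lines for the 7 windows of 4 of the described genes, numbered where a gene has several. Dnm1 (28) and Lgi2 (27) lie in the right part of the distribution, and the Slc6a9 windows (8 to 14) lie nearer the median of 7.

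The motif TGACG, the half-site of the cAMP response element, was looked for on both strands of the same windows. It was found 2 times in the first Ptprn window and 2 times in the second Slc6a9 window (chr4:117849100-117849399, plus strand), and not in the other 5. Of all 27025 promoters, 20.9% held it at least once. The motif contains a CG, so it occurs more often where CG is frequent.

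The libraries set the limits of what follows. Reads on genes numbered 27852412 to 35896018 per negative siRNA culture and 13739561 to 16186310 per DNMT1 siRNA culture, a ratio of medians of 2.09. Reads that fell on no annotated exon were 15.1% to 18.2% of assigned and unassigned reads with negative siRNA and 26.0% to 34.1% with DNMT1 siRNA (exact permutation test, two-sided, p = 0.1, and no smaller p is possible with 3 cultures in each treatment). In a principal component analysis, negative siRNA replicate 2 scored -37.12 on the second component, while replicates 1 and 3 scored 24.00 and 18.42. Values without it are given for Ush1g, Lgi2, Ptprn and the counts of called genes. Dnmt1 itself stood at 2760 to 3446 normalized counts in the negative siRNA cultures and at 666 to 786 after knockdown. Its log2 fold change was -2.03 (SE 0.11, edgeR quasi-likelihood test, adjusted p = 0.000192). Dnmt3a had 0.24 (SE 0.08, edgeR adjusted p = 0.0919) and Dnmt3b had 0.21 (SE 0.17, edgeR adjusted p = 0.444), and neither was called.

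All 6 genes stood lower with DNMT1 siRNA, from 8.74% of the negative siRNA mean for Ush1g to 45.8% for Dnm1. In each of them every DNMT1 siRNA culture lay below every negative siRNA culture. So did 17.7% of all 15470 tested genes. A gene was called when its false discovery rate (FDR) was below 0.05 and its fold change above 1.5, and all 6 were called lower against 2.23% of all tested genes called lower (4.26% higher, 6.49% in either direction). Without the limit on fold change these shares were 5.65% lower and 6.81% higher. The 6 were chosen on this comparison, so nothing is read from that difference. Ranked by log2 fold change among the 345 genes called lower, Ush1g was at 1, Lgi2 at 7, Ptprn at 19, Fam78b at 71, Slc6a9 at 82 and Dnm1 at 114. In bulk RNA of sorted cells, fewer cells that express a gene and less RNA of it per cell cannot be told apart.

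**Figure D2:**
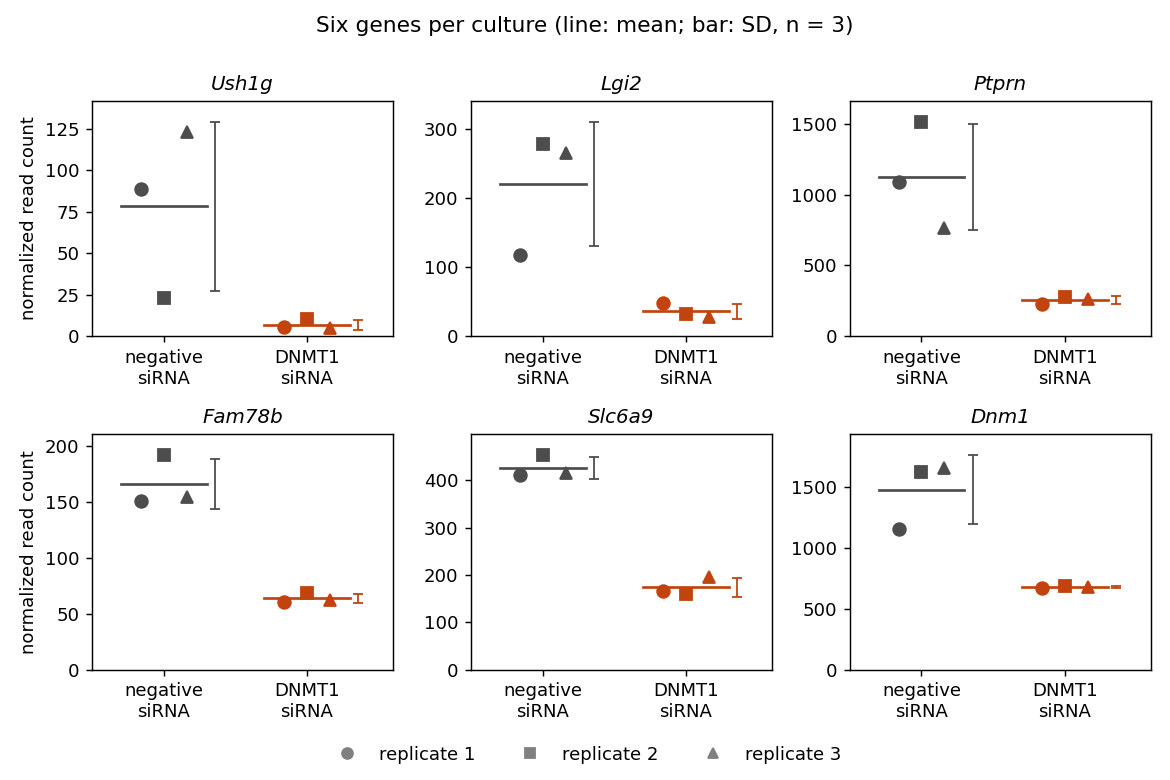
Normalized read counts (y axis, reads scaled to a common effective library size, axes from 0) of the 6 genes in the 3 negative siRNA cultures (grey) and the 3 DNMT1 siRNA cultures (red). Symbols mark the replicates, the line is the mean and the bar is the SD (n = 3). No DNMT1 siRNA culture reaches a negative siRNA culture in any panel, and the grey points are spread widest for Ush1g, from 22.7 to 123.

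Ptprn, the vesicle protein, lies on chromosome 1 of GRCm38 (75247027 to 75264502, minus strand, ENSMUSG00000026204). It had 1090, 1514 and 768 normalized counts in negative siRNA replicates 1 to 3 and 224, 275 and 263 in the DNMT1 siRNA cultures. The lowest negative siRNA culture was 2.79 times the highest DNMT1 siRNA culture, the widest gap of the 6 genes. Means with SD (n = 3) were 1124 ± 374 and 254 ± 26.9, and the log2 fold change was -2.15 (SE 0.24). Without negative siRNA replicate 2 it was -1.87 (SE 0.16). Its exons share 189 bases with the antisense gene Gm28294, which had no more than 1 read in any culture.

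Genes of dense-core vesicles and regulated secretion were then examined as a list. Of 18 listed genes, 9 passed the filter. Among those 9, 1 rose and 0 fell, with a median log2 fold change of 0.17 against -0.0049 over all tested genes. Over all tested genes 4.26% were called higher and 2.23% lower, the shares to set beside this list and those that follow. The lists were chosen with earlier results of these data known, so nothing is read from a share that differs. At an unadjusted p below 0.05, 2 of the 9 differed in edgeR, and DESeq2 also called 1 higher and 0 lower. The gene that rose was Pam, whose enzyme amidates peptide hormones, from 7917 ± 642 to 13414 ± 699 normalized counts (SD, n = 3 each; log2 fold change 0.76, SE 0.08, edgeR adjusted p = 0.00176). Cpe, the carboxypeptidase that trims prohormones, was the most highly expressed of the list per kilobase of exon. Its log2 fold change was 0.02 (SE 0.10, edgeR adjusted p = 0.934). The granins Scg2 (-0.78, SE 0.34, edgeR adjusted p = 0.176) and Vgf (-0.81, SE 0.36, edgeR adjusted p = 0.183) had negative log2 fold changes that were not called, although with no filter on low counts Scg2 was called lower (-0.81, edgeR adjusted p = 0.0172) and Chga higher (3.43, edgeR adjusted p = 0.0338, on 2 and 12 reads). Ptprn2, the closest relative of Ptprn, had means of 3.77 and 4.01 normalized counts with negative and DNMT1 siRNA. These rest on 16 reads over the 3 negative siRNA cultures and 8 over the 3 DNMT1 siRNA cultures, below the filter. Chga, Chgb, Scg3, Scg5, Pcsk1, Pcsk2, Cadps and Snap25, which belong to the core of neuroendocrine secretion, were below it too.

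Dnm1 lies on chromosome 2 (32308471 to 32353338, minus strand, ENSMUSG00000026825). Its normalized counts were 1158, 1625 and 1662 in negative siRNA replicates 1 to 3, and 674, 685 and 677 in the knockdown cultures. The DNMT1 siRNA cultures differed from each other by 1.02 times from lowest to highest, the closest agreement among the 6 genes, while the negative siRNA cultures differed by 1.44 times. The DNMT1 siRNA cultures held 503, 470 and 414 reads. Counting error alone would spread such counts more widely than this, so nothing is read from the agreement. Means with SD (n = 3) were 1481 ± 281 and 679 ± 5.52, and the log2 fold change was -1.12 (SE 0.14). The gene overlaps Ciz1 on the opposite strand without sharing an exon base, and Ciz1 had a log2 fold change of -0.05 (SE 0.08, edgeR adjusted p = 0.747).

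The other dynamins and the endocytic proteins that work with dynamin were not called. Dnm2, the dynamin found in most tissues, stood at 3083 ± 135 and 3164 ± 33.1 normalized counts (SD, n = 3) in negative and DNMT1 siRNA cultures, and its log2 fold change was 0.04 (SE 0.06, edgeR adjusted p = 0.726). Dnm3 had a log2 fold change of 0.39 (SE 0.24, edgeR adjusted p = 0.317). Dnm1l, the dynamin-related protein of mitochondrial fission, had 0.10 (SE 0.06, edgeR adjusted p = 0.304). Of 29 genes in the list, which also holds clathrin, the AP2 adaptor, endophilins, amphiphysins, synaptojanins and intersectins, 27 passed the filter. Of these 27, 0 were called in edgeR and 0 in DESeq2, 6 had an unadjusted edgeR p below 0.05, and the median log2 fold change of the 27 was -0.01. The lowest value was -0.49 for Sh3gl3 (SE 0.39, edgeR adjusted p = 0.445). The highest was 1.04 for Amph (SE 0.36, edgeR adjusted p = 0.0963), on 44 and 41 reads over the 3 cultures of each treatment. Clta, clathrin light chain A, was the most highly expressed per kilobase, with a log2 fold change of -0.14 (SE 0.07, edgeR adjusted p = 0.262).

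Slc6a9 lies on chromosome 4 (117834506 to 117875198, plus strand, ENSMUSG00000028542). Negative siRNA cultures held 410, 452 and 414 normalized counts and DNMT1 siRNA cultures 166, 159 and 196. The negative siRNA cultures agreed within 1.10 times, the least spread of the 6 genes in that treatment. Means with SD (n = 3) were 426 ± 23.1 and 174 ± 19.8, and the log2 fold change was -1.29 (SE 0.12). Exons of the gene share 1429 bases with Ccdc24, 511 with Gm17114 and 46 with B4galt2, all on the opposite strand. Ccdc24 had 1 to 6 reads per culture and Gm17114 had 0, while B4galt2 had 550 to 2360. B4galt2 had a log2 fold change of -0.58 (SE 0.12, edgeR adjusted p = 0.0226), which is an FDR below 0.05 with a change just under 1.5 times. The strand setting of the counting is not given in the sources used here.

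Among genes of glycine transport, glycine receptors and glycine metabolism, 8 of 13 passed the filter, of which 1 rose and 1 fell. That is 12.5% in each direction, against 4.26% higher and 2.23% lower among all tested genes. Each 12.5% is 1 gene of a list chosen with earlier results known, so nothing is read from the difference. Shmt2, the mitochondrial enzyme that makes glycine from serine, had 2133, 2780 and 2401 normalized counts with negative siRNA. In the DNMT1 siRNA cultures it had 1094, 1099 and 1164. It fell by 1.12 on the log2 scale (SE 0.10, edgeR adjusted p = 0.000911), and was called in all 12 other fits. Gldc, the decarboxylase of the glycine cleavage system, had 732, 840 and 904 normalized counts with negative siRNA, against 1403, 1284 and 1459 with DNMT1 siRNA. It rose by 0.74 on the log2 scale (SE 0.10, edgeR adjusted p = 0.00325), also in all 12 other fits. The cytosolic enzyme Shmt1 had a log2 fold change of -0.52 (SE 0.23, edgeR adjusted p = 0.177), and the remaining members of the cleavage system, Amt, Gcsh and Dld, were not called. The second glycine transporter, Slc6a5, had 5 and 8 reads over the 3 cultures of each treatment (means of 1.14 and 3.95 normalized counts). The receptor genes Glra1, Glra2, Glra3 and Glra4 had at most 7 reads over the 3 cultures of either treatment, and all were below the filter.

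The other transporters of the SLC6 family were not called. Only 4 of 16 passed the filter, 0 of them were called in edgeR or DESeq2, and 2 had an unadjusted edgeR p below 0.05. Slc6a6, the taurine transporter, was the highest of them per kilobase. It had an FDR below 0.05 but a change below 1.5 times, with a log2 fold change of 0.41 (SE 0.09, edgeR adjusted p = 0.0298).

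Lgi2 lies on chromosome 5 (52533517 to 52566462, minus strand, ENSMUSG00000039252). It had 117, 278 and 265 normalized counts with negative siRNA, against 48.3, 32.1 and 27.8 with DNMT1 siRNA. Negative siRNA replicate 1 was low and the other two stood close together, and all 3 stayed above the DNMT1 siRNA cultures. Means with SD (n = 3) were 220 ± 89.6 and 36.05 ± 10.8, and the log2 fold change was -2.59 (SE 0.38). Without negative siRNA replicate 2 it was -2.37 (SE 0.38).

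The remaining LGI genes were near the floor of detection. Lgi1 had 6 reads over the negative siRNA cultures and 13 over the DNMT1 siRNA cultures (means of 1.30 and 6.79 normalized counts), and was not tested. Lgi3 had a log2 fold change of -0.81 (SE 0.60, edgeR adjusted p = 0.413) and Lgi4 of 1.42 (SE 0.40, edgeR adjusted p = 0.0523), on 26 and 32 reads for Lgi4. The receptor genes had more reads. Adam22, the highest of the list per kilobase, had a log2 fold change of 0.35 (SE 0.22, edgeR adjusted p = 0.337) and Adam23 of -0.03 (SE 0.20, edgeR adjusted p = 0.939). Adam22 had 689, 422 and 350 normalized counts in the negative siRNA cultures, and without replicate 1 it was called higher (0.69, edgeR adjusted p = 0.00755). Of the 5 genes of the list that passed the filter, 0 were called in edgeR or DESeq2, and 1 had an unadjusted edgeR p below 0.05.

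Fam78b lies on chromosome 1 (167001417 to 167091302, plus strand, ENSMUSG00000060568). Normalized counts were 151, 192 and 155 with negative siRNA, against 60.3, 68.5 and 62.1 with DNMT1 siRNA. Cultures of one treatment stood close together. Means with SD (n = 3) were 166 ± 22.4 and 63.7 ± 4.29, and the log2 fold change was -1.38 (SE 0.16). Its only paralog, Fam78a (chromosome 2, 32050055 to 32084857, ENSMUSG00000050592), was called higher. Fam78a had 272, 449 and 250 normalized counts with negative siRNA, against 727, 675 and 564 with DNMT1 siRNA, with no overlap between treatments, as in 18.3% of all tested genes. It rose by 1.02 on the log2 scale (SE 0.22, edgeR adjusted p = 0.0219). In CPM, that is counts scaled for library size, per kilobase of exon, Fam78b and Fam78a stood at 1.21 and 2.50 with negative siRNA. The call of Fam78a was lost in each of the 3 fits that left out a DNMT1 siRNA culture and held in the other 9, with log2 fold changes from 0.87 to 1.33.

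Ush1g lies on chromosome 11 (115315192 to 115322041, minus strand, ENSMUSG00000045288). It had 88.7, 22.7 and 123 normalized counts with negative siRNA, against 5.36, 10.2 and 4.91 with DNMT1 siRNA. Negative siRNA replicate 2 was low, and was still 2.23 times the highest DNMT1 siRNA culture. These values rest on 152, 33 and 158 reads against 4, 7 and 3. The sum of 14 reads over the DNMT1 siRNA cultures has an exact Poisson 95% interval of 7.65 to 23.5, which covers counting error only. The gene had 10 reads or more in the 3 negative siRNA cultures alone, so it passed the filter through the treatment in which it was high. Means with SD (n = 3) were 78.1 ± 50.9 and 6.82 ± 2.94, and the log2 fold change was -3.49 (SE 0.71). Without negative siRNA replicate 2 it was -3.92 (SE 0.33). Without any one of the DNMT1 siRNA cultures Ush1g was no longer called, with log2 fold changes of -3.35, -3.89 and -3.34 when replicates 1, 2 and 3 were left out.

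Of 12 listed genes, Usher and hair bundle genes and the SANS-like Anks4b, 8 passed the filter. Of these, 2 fell and 0 rose, that is 25% lower, against 2.23% lower and 4.26% higher among all tested genes. This list too was chosen with earlier results known, and nothing is read from the difference. Myo7a, the myosin that carries the Usher complex, had 467, 754 and 624 normalized counts with negative siRNA, against 259, 264 and 352 with DNMT1 siRNA. It fell by 1.08 on the log2 scale (SE 0.19, edgeR adjusted p = 0.0114). Whrn, the scaffold protein whirlin, had 382, 419 and 482 with negative siRNA and 266, 293 and 265 in the knockdown cultures, and fell by 0.64 (SE 0.12, edgeR adjusted p = 0.0130). The call of Myo7a was lost without DNMT1 siRNA replicate 1 or 2. That of Whrn was lost without any one DNMT1 siRNA culture or without negative siRNA replicate 3. Over the 12 other fits the log2 fold change ranged from -1.25 to -0.91 for Myo7a and from -0.71 to -0.54 for Whrn. Cdh23, Cib2, Adgrv1, Pdzd7, Espn and Ush1c were not called. Genes below the filter included the cadherin Pcdh15, Clrn1 and the SANS-like Anks4b, the last with 0 and 1 reads over the 3 cultures of each treatment. The median of the 8 tested genes was -0.21.

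Over the 8 lists of family and pathway genes together, 76 of 117 genes passed the filter. Of these, 4 were called higher (5.26%) and 3 lower (3.95%), against 4.26% higher and 2.23% lower among all tested genes. Without negative siRNA replicate 2, 7 were called higher and 4 lower, the added genes being Ush1c, Adam11, Syn2 and Pdzd7. The median log2 fold change of the 76 was 0.04.

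**Figure D3:**
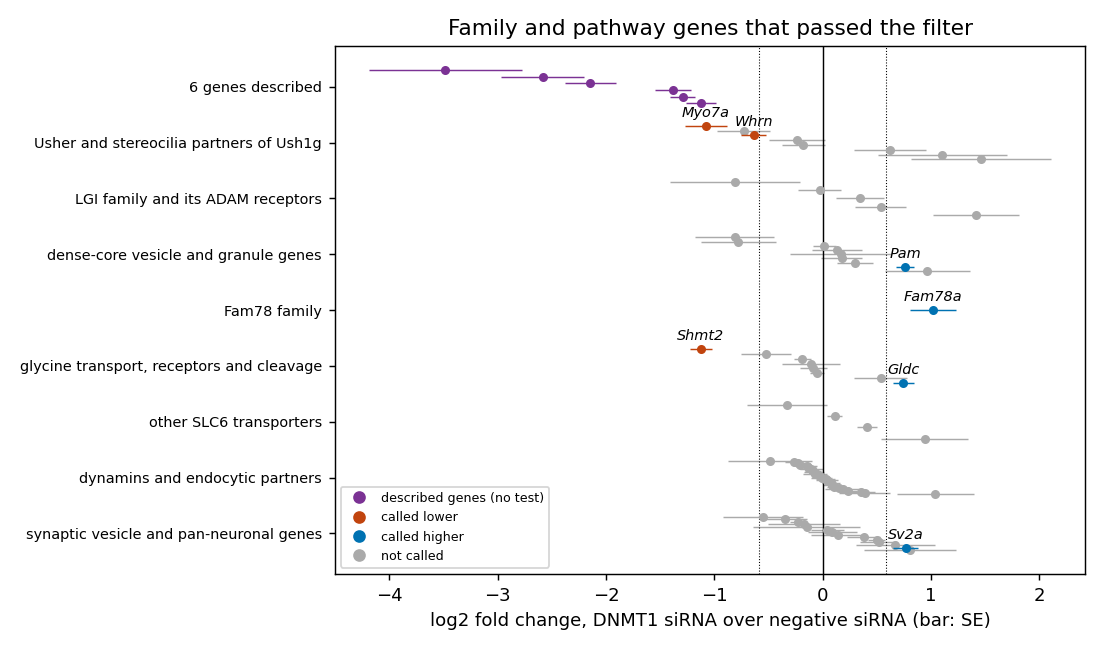
Log2 fold change (x axis, DNMT1 siRNA over negative siRNA, bars are SE) of the 6 described genes (purple, chosen on this comparison and shown as a description) and of the 76 family and pathway genes that passed the filter, by list. Dotted lines mark a fold change of 1.5. Shmt2, Myo7a and Whrn lie to the left as called lower, and Fam78a, Pam, Gldc and Sv2a to the right as called higher. Most of the 27 endocytic genes gather around 0, while Amph among them lies at 1.04 (SE 0.36) and was not called.

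No gene of a list that marks neurons in general was called lower. Of 22 pan-neuronal and synaptic vesicle genes, 14 passed the filter, 1 rose and 0 fell. That is 7.14% higher, against 4.26% higher and 2.23% lower among all tested genes. DESeq2 also called 1 higher and 0 lower, and 5 had an unadjusted edgeR p below 0.05. Sv2a, a glycoprotein of synaptic vesicles, had 383, 515 and 480 normalized counts with negative siRNA, against 766, 799 and 777 with DNMT1 siRNA. It rose by 0.77 on the log2 scale (SE 0.11, edgeR adjusted p = 0.00571). Vamp2 had an FDR below 0.05 but a change below 1.5 times, with a log2 fold change of 0.50 (SE 0.08, edgeR adjusted p = 0.00686). Tubb3, neuronal tubulin and the highest of the list per kilobase, had a log2 fold change of -0.34 (SE 0.20, edgeR adjusted p = 0.291). Of all 22, 10 stayed below 1 CPM in every culture, among them Stmn2, Nefl, Syp and Rbfox3.

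Marker genes of the cell types that ventricular cultures can hold moved with treatment, and their counts stand against 4.26% higher and 2.23% lower among all tested genes. Of 10 cardiomyocyte markers 6 were called higher (Tnnt2, Actn2, Myh6, Myl2, Ryr2 and Ttn), and the 10 summed to 1964 to 2589 CPM per negative siRNA culture and to 4335 to 5252 CPM per DNMT1 siRNA culture. Of 8 fibroblast markers 3 were lower (Col1a1, Col1a2 and Dcn), with sums of 36082 to 55676 and 27401 to 29238 CPM in the same order. Negative siRNA replicate 2 alone had 55676 CPM, and the other two had 36082 and 38250 CPM. Most of the fibroblast sum was the collagens Col1a1, Col1a2 and Col3a1, with means of 23247, 10377 and 8400 CPM with negative siRNA. Of the fibroblast markers that are not collagens, Dcn alone was called. Tcf21 had a log2 fold change of 0.005 (SE 0.09, edgeR adjusted p = 0.976), and Pdgfra, Lum and Postn had -0.40, -0.42 and -0.21. Per kilobase, fibroblast markers, again mostly collagens, summed to 4601 to 7000 and cardiomyocyte markers to 444 to 607 CPM in the negative siRNA cultures. Of 8 endothelial and endocardial markers 3 were higher (Kdr, Emcn and Npr3), at 93.2 to 123 and 213 to 227 CPM. Without Npr3, which had the largest log2 fold change of the list, the sums were 75.5 to 115 and 106 to 123 CPM and overlapped. Tek went the other way, with an FDR below 0.05 but a change below 1.5 times (log2 fold change -0.35, SE 0.09, edgeR adjusted p = 0.0373). Of the others, Nfatc1 had -0.11, and Pecam1, Cdh5 and Tie1 had 0.87, 0.83 and 0.97 and were not called. Krt19 of 6 epicardial markers (1322 to 1511 and 1406 to 1462 CPM) and Pdgfrb of 6 smooth muscle and pericyte markers (5282 to 7887 and 4400 to 4595 CPM) were lower. Of 6 macrophage markers, at 9.54 to 24.9 and 8.46 to 13.3 CPM, 5 were tested and 0 were called in edgeR, 3 had an unadjusted edgeR p below 0.05 and DESeq2 called 3 lower. S100b of 8 glial and neural crest markers (4.33 to 5.21 and 6.55 to 8.93 CPM) and Dbh of 8 autonomic neuron markers (79.4 to 94.6 and 86.0 to 91.3 CPM) were higher, on 39 and 67 and on 52 and 67 reads. Most of the autonomic neuron sum was Hand2, a transcription factor also expressed in the heart, and the other 7 genes summed to 3.12 to 8.29 CPM and 11.2 to 13.4 CPM. Among those 7, Phox2a had a log2 fold change of 1.01 (SE 0.31, edgeR adjusted p = 0.0729) and was not called. Prph had 1.21 (SE 0.42, edgeR adjusted p = 0.0967) and was not called either. In both, every DNMT1 siRNA culture lay above every negative siRNA culture, while Hand2 had -0.10 (SE 0.09, edgeR adjusted p = 0.487). Th, Chrna3, Sox10 and Foxd3, which also mark autonomic neurons or glia and neural crest, had 1 to 6 reads over the 3 cultures of either treatment. DESeq2 called 6 cardiomyocyte, 5 endothelial, 2 glial, 2 autonomic neuron and 1 smooth muscle marker higher, and 3 fibroblast, 1 epicardial and 1 smooth muscle marker lower. The part of these shifts in the values of the 6 genes was not tested. Vcam1, the antigen of the sort, had a log2 fold change of -0.26 (SE 0.11, edgeR adjusted p = 0.148).

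Levels were compared per kilobase of merged exon. With negative siRNA, Dnm1 was at 13.0 ± 2.46 CPM and Ptprn at 12.2 ± 4.06 (SD, n = 3 each), and these were not separated, with ranges of 10.2 to 14.6 and 8.32 to 16.4. Slc6a9 followed at 3.81 ± 0.207. Lgi2 at 1.55 ± 0.632, Fam78b at 1.21 ± 0.163 and Ush1g at 1.09 ± 0.709 overlapped each other in range. With DNMT1 siRNA the ranges of neighbours did not overlap, and the order was Dnm1 at 5.96 ± 0.0484, Ptprn at 2.76 ± 0.292, Slc6a9 at 1.56 ± 0.177, Fam78b at 0.464 ± 0.0312, Lgi2 at 0.254 ± 0.0762 and Ush1g at 0.0951 ± 0.0409. By mean CPM in the negative siRNA cultures the genes stood from the 24.8 percentile (Ush1g) to the 79.7 percentile (Dnm1) of tested genes.

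The 6 genes differed in how far the negative siRNA cultures stood from each other. The SD of log2 CPM over the 3 negative siRNA cultures was 1.24 for Ush1g, 0.70 for Lgi2 and 0.49 for Ptprn. These were above those of 97.9%, 95.6% and 96.3% of the genes in the same expression class (10 classes of 1547 genes). The SD was 0.29 for Dnm1 (90.4%), 0.19 for Fam78b (45.9%) and 0.08 for Slc6a9 (15.3%). Negative siRNA replicate 2 was the highest of the 3 for Lgi2, Ptprn, Fam78b and Slc6a9, the second for Dnm1 and the lowest for Ush1g. With DNMT1 siRNA, the SD was smaller in 5 of the 6 genes, the exception being Slc6a9 with 0.16. The median SD of genes of like level was also smaller with DNMT1 siRNA in each of their classes, at 0.06 to 0.28 against 0.12 to 0.34 with negative siRNA.

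**Figure D4:**
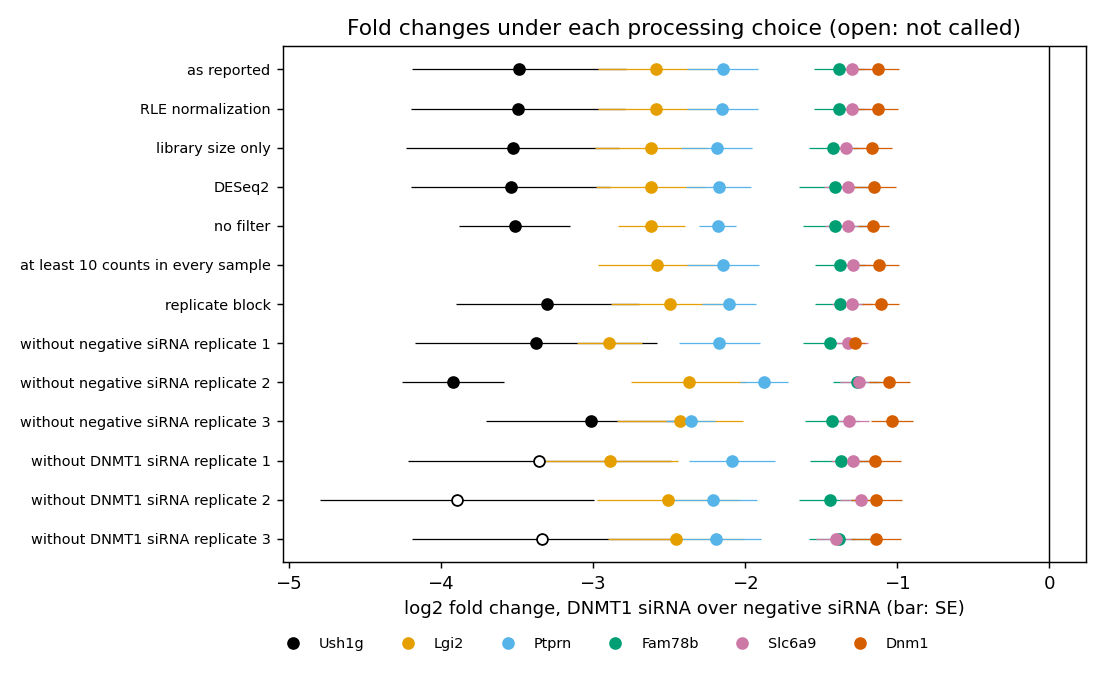
Log2 fold change (x axis, DNMT1 siRNA over negative siRNA, bars are SE) of the 6 genes in the reported fit and in 12 others (y axis), filled where called lower and open where not. The 6 genes stay to the left of 0 in each fit, and open symbols appear for Ush1g alone, in the 3 fits without a DNMT1 siRNA culture. Ush1g has no value where 10 counts were asked of every sample.

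Over 12 other fits the log2 fold change ranged from -2.89 to -2.37 for Lgi2, from -2.36 to -1.87 for Ptprn and from -1.44 to -1.26 for Fam78b. It ranged from -1.40 to -1.24 for Slc6a9 and from -1.27 to -1.03 for Dnm1. Ush1g ranged from -3.92 to -3.01 over the 11 fits that held it.

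Genes with the nearest profiles were found by the distance between log2 CPM values over the 6 cultures, each gene centred on its own mean. The cultures share 2 treatments, so a small distance first of all means a fall of like size. Slc6a9 lay nearest to Mthfd1l (distance 0.27, log2 fold change -1.11) and Asns (0.29, -1.15). Dnm1 lay nearest to Adora2b (0.20, -1.16) and again Asns (0.25). Fam78b lay nearest to the pseudogene Rps15a-ps5 (0.26, -1.45), whose reads can be shared with its parent gene, and to Chac1 (0.26, -1.22). Ptprn lay nearest to Grem1 (0.56, -1.99) and Mycl (0.60, -1.76), and Lgi2 to Car6 (0.70, -3.01) and Slc7a3 (0.79, -2.18). Ush1g had no close neighbour. Its nearest genes, Zbp1 and Psmb8, lay at distances of 1.58 and 1.74. Among the 6 genes themselves, Fam78b, Slc6a9 and Dnm1 lay within 0.36 to 0.49 of each other, and Ush1g lay 2.56 or more from the other five.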

How the data were processed

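RNA-Seq was run by the authors on 3 negative siRNA and 3 DNMT1 siRNA cultures. Per the labels and methods, reads were checked with FastQC, mapped to mm10 (GRCm38) with TopHat2 and counted per gene with HTSeq on Ensembl release 79. The deposited values are raw counts, without normalization. The counter's rows that name no gene, with reads on no exon at 15.1% to 34.1% per sample, were kept out of library sizes and tests. Counts were tested here with edgeR 4.0.16 (R 4.3.3): filterByExpr (minimum count 10, minimum total 15), TMM normalization, quasi-likelihood F test and Benjamini-Hochberg adjustment over 15470 genes. A call needed an FDR below 0.05 and a fold change above 1.5. The SE follows from the log2 fold change and the F statistic, as their size over root F. Normalized counts were scaled to the geometric mean of the effective library sizes, and CPM used the same sizes. A prior count of 2 was added for the log2 CPM of principal components and profile distances. Exon lengths and positions came from GENCODE M21 (GRCm38), which holds 42462 of the 43629 genes, and promoters from RefSeq (GRCm38.p6). DESeq2 1.42.0 was an alternative, beside RLE factors, library size alone, other filters, a replicate block and leaving out each culture. The pipeline was tested on simulated data.

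To look for duplicates, counts of replicates were set against each other in a chi-square test. The statistic per degree of freedom was 26.4 to 54.46 for pairs of negative siRNA cultures. It was 2.7 to 9.86 for pairs of DNMT1 siRNA cultures, with the lowest value between replicates 2 and 3. Each pair thus differed by more than counting error, so none was an identical library entered again. The test cannot tell separate cultures from separate libraries of one culture or pool, so the independence of the replicates was not tested. After group means were removed, cultures with the same replicate number correlated at 0.00637, -0.0208 and 0.0274, and the numbers were not taken as pairs. Named genes are the 6 genes, their paralogs, called genes of the lists, called markers and the most highly expressed of each list. The 2 nearest profiles of each gene are named too, as are Dnmt1, Dnmt3a, Dnmt3b and Vcam1. Other genes of the lists, and genes that overlap the 6, were named after their values were seen. The genes and lists were chosen with earlier results of these data known. The protein comparison planned was not made, as no protein sequences were used here. Some genes of the lists are not reported here by name.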

Additional observations from a re-analysis of the deposited data

How the results depend on the processing

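The 6 genes were called lower in the reported fit and in each alternative but 4. Ush1g was not tested when 10 counts were asked of every sample, and it was not called when any 1 DNMT1 siRNA culture was left out, so that 5 of 6 remained. Among all genes, 659 were called higher and 345 lower. No filter on low counts gave 994 and 701, and an FDR below 0.05 with no limit on fold change gave 1054 and 874. Leaving out 1 culture gave 255 to 823 higher and 112 to 472 lower. The low ends came without DNMT1 siRNA replicates 1 (316 and 146), 2 (255 and 112) or 3 (314 and 145), and the highest count of higher genes came without negative siRNA replicate 2 (823). Of the family and pathway genes, 4 were called higher and 3 lower. This became 8 and 5 with no filter, and 3 to 7 higher and 1 to 4 lower when 1 culture was left out, with 7 higher without negative siRNA replicate 2 and 1 lower (Shmt2) without DNMT1 siRNA replicate 1 or 2. The cause of these moves was not tested. With a replicate block, although the numbers were not taken as pairs, 513 genes were called higher and 285 lower, and the 6 genes and the 4 and 3 family and pathway genes were called as before. The gap in reads outside exons, 14.2 percentage points, was 12.9 with ambiguous reads in the denominator. With 13739561 to 16186310 reads on genes per DNMT1 siRNA culture, changes in genes below the filter, such as Ptprn2, Lgi1 and Slc6a5, could not be measured.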
